A study of Mus musculus with 283 samples.

Results

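Untreated tumours of the mouse mammary cancer lines T11 and KPB25L were compared at the time point labelled 3 day. The comparison held 9 of the 283 samples of the series, and 270 of those samples were RNA-seq libraries. Members were taken from the labels alone, as all tumours of either line with the time 3 day and no therapy, which gave 4 T11 and 5 KPB25L tumours. No measured value entered the choice. Tumours grew orthotopically in syngeneic mice, and mice were randomized at a tumour diameter of 5 mm, per the labels' protocols. The labels class T11 as resistant and KPB25L as sensitive to antibodies against PD1 and CTLA4, which none of these 9 mice received. The exome labels of the series give BalbC as the strain of T11 and FVB as that of KPB25L. The labels of the RNA libraries give no genotype, age or sex.

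Each group stands for 1 line, so the line, its tumour of origin and its host strain cannot be told apart within the 3-day tumours. As known of the study's models, T11 descends from a Trp53-null mammary tumour transplanted in BALB/c mice, and KPB25L from a tumour of mice in which Cre under the Krt14 promoter deletes Trp53 and Brca1. The file header calls all 9 tumours pretreatment, while the time field says 3 day. The free text of KPB25L replicates 1 and 2 names the 5 mm size and the word flow but no day, that of KPB25L replicates 3 to 5 names both the size and the day, and that of T11 names the day only. Nothing in the labels states that KPB25L replicates 3 to 5 came from separate mice, and p-values then measure only the spread between these libraries.

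Epithelial cells are held together by E-cadherin, claudins and desmosomes, and transcription factors such as GRHL2 and ELF3 keep their gene programme on. In an epithelial-mesenchymal transition, factors of the SNAI, ZEB and TWIST families bind E-box motifs in the promoters of such genes and repress them, while vimentin and other mesenchymal genes are turned on. Claudin-low tumours are a subtype of triple-negative breast cancer named for their low claudin expression, and T11 is used as a model of it. A tumour library also holds RNA of fibroblasts, vessels and immune cells. In such bulk libraries, fewer cells of a type and less RNA per cell cannot be told apart.

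Each value is a signal per gene, scaled by the authors to a common upper quartile. Values are given here as log2 levels, log2 of the signal plus 1, so differences of low genes are understated. All differences are T11 minus KPB25L and come from limma with Benjamini-Hochberg adjusted p-values over all genes tested, called below 0.05. Estimated depth was 31880000 to 60500000 reads in T11 and 23260000 to 76000000 in KPB25L. A single read was worth a log2 level of 0.74 to 1.54, so levels below about that size rest on 1 read or none. Of 14875 genes tested, 7049 were called, or 47.4%. T11 was higher for 2821 genes (19%) and lower for 4228 (28.4%). Counts of called genes in each list below are to be read against these 2 shares. The lists were chosen with earlier results of these data known. After rescaling each library by its median gene, the split was 3671 higher and 3695 lower, so shares of each direction depend on the scaling. The median difference over all genes tested was -0.10, and all list medians below should be read against it. Groups did not overlap for 6105 genes, or 41%: 2423 higher (16.3%) and 3682 lower (24.8%). Sample correlations were 0.968 to 0.987 within T11, 0.921 to 0.991 within KPB25L and 0.804 to 0.862 between the lines. All T11 libraries were read on 1 flow cell that held no KPB25L library of this time, so the flow cell and the line cannot be told apart here. KPB25L replicates 1 and 2 shared another flow cell, replicates 3 and 4 another, and replicate 5 was read apart from them. The top 10 genes held 8.48% of the signal in KPB25L replicate 5 and 4.67 to 4.9% in KPB25L replicates 1 to 4. On the second principal component, KPB25L replicates 1 and 5 (25.4 and 52.7) lay apart from KPB25L replicates 2 to 4 (-36.9 to -20.5). T11 replicate 2 (-40.9) lay apart from the other T11 tumours (5.5 to 18.9).

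Trp53 and Brca1, the genes deleted in the mice that gave KPB25L, were looked at first. Trp53 stood at log2 levels of 11.9, 12.01, 11.89 and 12.08 in T11 and 9.87, 10.91, 10.38, 10.6 and 11.02 in KPB25L. It was called higher in T11, with a log2 difference of 1.41 (SE 0.21, adjusted p = 0.000349). Brca1, which acts in repair of DNA breaks, stood at log2 levels of 10.15, 10.12, 9.62 and 10.06 in T11 and 9.46, 10.32, 9.68, 9.82 and 9.38 in KPB25L. The Brca1 groups overlapped, and the log2 difference was 0.26 (SE 0.2, adjusted p = 0.327). A value for a whole gene does not show which exons are present, so neither gene checks the genotype, and host cells add their own transcripts of both.

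Genes of epithelial cell junctions and their regulators were lower in T11. Of 24 such genes listed, 23 passed the filter on low values, and 22 were called lower in T11 and 0 higher, against 28.4% lower over all genes tested. The median log2 difference of the list was -6.84. Mean log2 levels of the 23 tested genes were 3.97, 3.77, 5.83 and 4.76 in the T11 tumours and 11.3, 10.48, 10.86, 10.83 and 11.18 in the KPB25L tumours, so no T11 tumour came near the KPB25L range. Tjp3, a tight junction scaffold, was the tested gene that was not called, at log2 levels of 5.34 to 6.16 in T11 and 5.94 to 6.97 in KPB25L, a log2 difference of -0.73 (SE 0.3, adjusted p = 0.0675).

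Promoter sequences of 5 genes of the list are shown because the E-box to which SNAI and ZEB factors are known to bind can be read in them. Each line runs 5′ to 3′ on the gene's own strand toward the start given in the RefSeq promoter table of build GRCm38.p6. Lines of 200 bases end at the base before that start. Stretches under 200 bases were shortened where an annotated exon began. Capitals mark every match to CAGGTG or to CACCTG, which are reverse complements of each other, so both strands are covered. Epcam lies at chr17:87635779-87635978, plus strand. Crb3 lies at chr17:57062001-57062140, plus strand, which is inside the GENCODE span of the gene (chr17:57059105-57065918). Rab25 lies at chr3:88548301-88548479, minus strand. Ap1m2 lies at chr9:21312338-21312533, minus strand. Spint2 lies at chr7:29281978-29282177, minus strand.
Epcam: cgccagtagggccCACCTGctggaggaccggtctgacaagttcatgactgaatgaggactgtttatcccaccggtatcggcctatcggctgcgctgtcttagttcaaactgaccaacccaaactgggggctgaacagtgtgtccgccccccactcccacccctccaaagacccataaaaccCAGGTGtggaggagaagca
Crb3: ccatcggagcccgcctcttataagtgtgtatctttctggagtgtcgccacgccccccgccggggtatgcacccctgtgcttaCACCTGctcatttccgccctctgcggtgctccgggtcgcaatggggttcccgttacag
Rab25: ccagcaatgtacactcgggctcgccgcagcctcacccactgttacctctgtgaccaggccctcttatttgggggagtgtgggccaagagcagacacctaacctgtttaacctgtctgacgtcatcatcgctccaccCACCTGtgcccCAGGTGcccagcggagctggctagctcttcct
Ap1m2: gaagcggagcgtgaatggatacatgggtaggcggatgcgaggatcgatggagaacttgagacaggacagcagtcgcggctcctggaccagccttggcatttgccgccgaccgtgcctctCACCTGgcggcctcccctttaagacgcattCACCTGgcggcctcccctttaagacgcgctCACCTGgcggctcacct
Spint2: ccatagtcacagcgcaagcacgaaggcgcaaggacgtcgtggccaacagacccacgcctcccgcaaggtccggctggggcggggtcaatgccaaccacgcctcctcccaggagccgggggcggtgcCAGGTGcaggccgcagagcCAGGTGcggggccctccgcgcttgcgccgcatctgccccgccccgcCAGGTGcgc

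Within the 200 bases before the start, 9 of the 15 listed junction genes with an entry in the table held the motif (60%), and 6 held it at least 2 times (40%). Over all 27025 genes of the table, 15.8% held it and 1.61% held it at least 2 times. Of the genes printed, Ap1m2 held 4 matches in this window, Spint2 and Crb3 3 each, and Epcam and Rab25 2 each. The shortened stretches leave out 1 match of Ap1m2 and 2 of Crb3. These matches describe letters in a window and were not measured as binding sites.

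Epcam, a cell adhesion molecule of epithelia (chr17:87635979-87651129, GRCm38), stood at log2 levels of 4.87, 4.97, 7.46 and 5.41 in T11. In KPB25L it stood at 13.83, 13.65, 14.45, 14.45 and 14.53. All 4 T11 tumours lay more than 6 log2 units below every KPB25L tumour, with T11 replicate 3 the highest of its group, and the log2 difference was -8.5 (SE 0.48, adjusted p = 5.06e-07). Cdh1, which encodes E-cadherin (chr8:106603351-106670246), stood at log2 levels of 6.6, 5.24, 6.93 and 6.56 in T11. In KPB25L it stood at 14.15, 13.44, 14.24, 14.14 and 14.23, a log2 difference of -7.71 (SE 0.31, adjusted p = 7.51e-08). The Cdh1 groups were far apart, and KPB25L replicate 2 was the lowest of its own.

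The claudins, which seal tight junctions, were lower in T11 without exception among the 3 shown. Cldn3 stood at log2 levels of 0, 1.86, 5.83 and 5.93 in T11 and 12.8, 12.04, 12.4, 12.49 and 12.98 in KPB25L, a log2 difference of -9.13 (SE 1.09, adjusted p = 8.56e-05). Cldn4 stood at log2 levels of 1.01, 1.21, 6.25 and 3.59 in T11 and 12.95, 10.94, 11.94, 12.4 and 13.25 in KPB25L, a log2 difference of -9.28 (SE 0.97, adjusted p = 3.72e-05). Cldn7 stood at log2 levels of 2.82, 2.92, 4.99 and 1.82 in T11 and 11.92, 11.04, 11.24, 11.3 and 12.05 in KPB25L, a log2 difference of -8.37 (SE 0.54, adjusted p = 1.25e-06). T11 replicates 3 and 4 were the highest T11 tumours for Cldn3 and Cldn4 and stayed well below KPB25L. Ocln, another tight junction protein, stood at log2 levels of 2.65 to 3.97 in T11 and 7.78 to 8.6 in KPB25L, a log2 difference of -4.76 (SE 0.34, adjusted p = 2.8e-06).

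Regulators of the epithelial state differed in the same direction. Grhl2 stood at log2 levels of 2.6, 3.53, 3.67 and 2.6 in T11 and 10.59, 10.69, 10.58, 10.53 and 10.42 in KPB25L, a log2 difference of -7.46 (SE 0.27, adjusted p = 3.53e-08). Esrp1, which directs epithelial splice forms, was listed at 0 in 3 T11 tumours and at a log2 level of 4.78 in T11 replicate 3, against 12.4, 11.85, 12.01, 12.19 and 11.68 in KPB25L. The Esrp1 log2 difference of -10.83 (SE 0.89, adjusted p = 6.84e-06) therefore rests on the 1 added to each value for 3 of the 4 tumours. Crb3 and Rab25, which act in apical polarity and apical recycling, differed by -7.91 (SE 0.51, adjusted p = 1.35e-06) and -7.6 (SE 0.54, adjusted p = 2.64e-06) on the log2 scale. Prss8 and Spint2, a membrane protease and a protease inhibitor, differed by -7.23 (SE 0.71, adjusted p = 2.49e-05) and -6.27 (SE 0.31, adjusted p = 2.03e-07). Ap1m2, a sorting adaptor of epithelial cells, stood at log2 levels of 2.6, 1.21, 4.43 and 3.68 in T11 and 10.56, 9.01, 10.32, 9.93 and 10.47 in KPB25L, a log2 difference of -7.08 (SE 0.6, adjusted p = 8.47e-06).

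Desmosome genes were not uniform. Dsp, the plaque protein desmoplakin, stood at log2 levels of 4.82, 3.53, 6.16 and 3.78 in T11 and 11.88, 10.28, 11.29, 11.37 and 11.68 in KPB25L, a log2 difference of -6.73 (SE 0.52, adjusted p = 4.67e-06). Jup, which is shared by desmosomes and cadherin junctions, differed by less, with log2 levels of 11.91 to 12.66 in T11 and 13.72 to 14.24 in KPB25L and a log2 difference of -1.66 (SE 0.16, adjusted p = 1.97e-05). Pkp1, plakophilin 1, stood at log2 levels of 11.38 to 11.88 in T11 and 12.42 to 13.52 in KPB25L, a log2 difference of -1.38 (SE 0.21, adjusted p = 0.000402). Jup and Pkp1 thus differed by less than 2 log2 units, with no overlap between the lines.

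T11 replicate 3 had the highest junction list mean of its group. It also had the highest mean of the 5 tested adipocyte markers, at a log2 level of 9.58 against 6.99 to 7.77 in the other T11 tumours. The part of other cells in its epithelial signal was not tested. Without T11 replicate 3, 23 of 24 tested junction genes were lower, with a median log2 difference of -7.41.

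**Figure D1:**
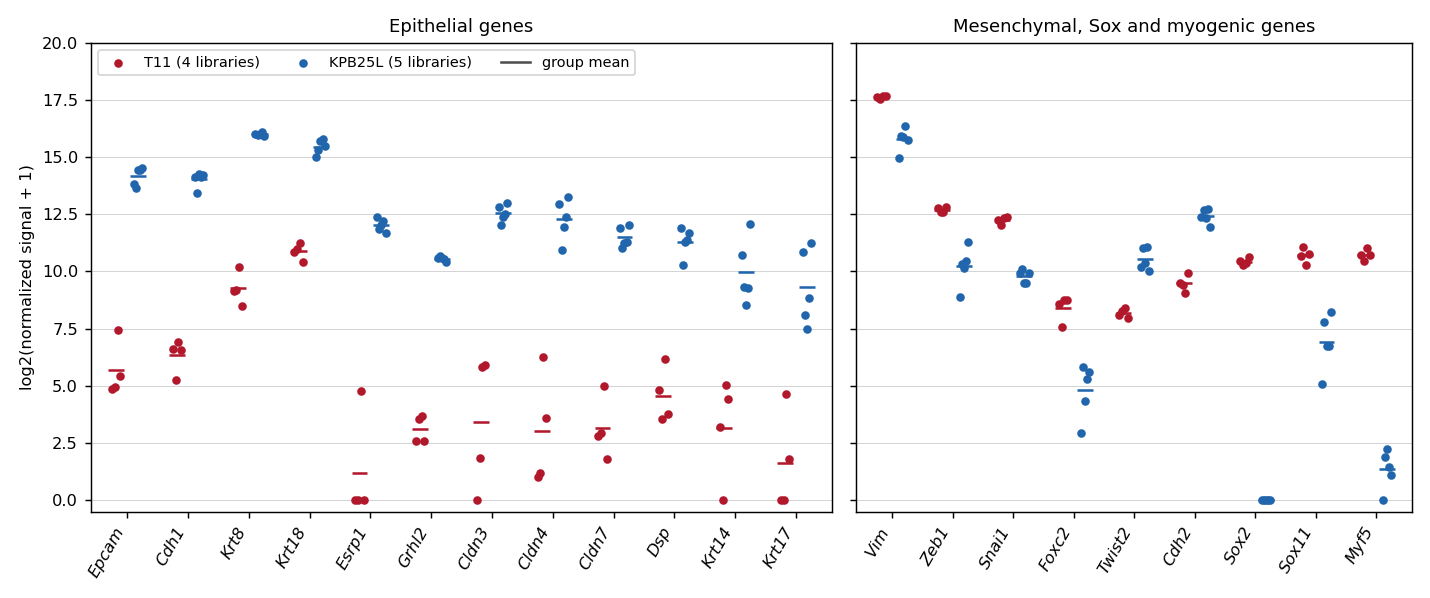
Log2 levels (vertical axis) of epithelial genes (left) and of mesenchymal, Sox and myogenic genes (right) in each of the 4 T11 (red) and 5 KPB25L (blue) tumours, with a line at each group mean. The epithelial genes drawn do not overlap between the lines, with Epcam at 4.87 to 7.46 in T11 and 13.65 to 14.53 in KPB25L. Vim and Zeb1 are higher in all T11 tumours. Tjp3, Krt5 and Krt19, which overlap, and Gata3 and Muc1, which are higher in T11, are not drawn.

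Markers of basal epithelium were lower in T11 for 9 of the 12 tested of 17 listed, and 0 were higher, with a median log2 difference of -5.1, against 28.4% lower over all genes tested. Krt14, a basal keratin, stood at log2 levels of 3.18, 0, 5.02 and 4.44 in T11 and 10.72, 9.3, 8.55, 9.28 and 12.08 in KPB25L, a log2 difference of -6.83 (SE 1.02, adjusted p = 0.000361). Krt5, its partner, did not pass the filter on low values and stood at log2 levels of 2.01, 0, 6.27 and 0 in T11 and 2.4, 1.23, 1.54, 3.17 and 7.55 in KPB25L. KPB25L replicate 5 and T11 replicate 3 were the highest tumours for Krt5, and the groups overlapped. Both keratins were listed at 0 in both cultured lines.

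Other basal genes were high in KPB25L. Krt17 stood at log2 levels of 0, 0, 4.63 and 1.82 in T11 and 10.87, 8.08, 7.5, 8.84 and 11.26 in KPB25L, a log2 difference of -7.69 (SE 1.07, adjusted p = 0.000242). Lama3 and Lamb3, chains of the laminin that anchors basal cells, differed by -5.59 (SE 0.24, adjusted p = 9.19e-08) and -5.45 (SE 0.24, adjusted p = 1.04e-07) on the log2 scale. Itgb4, the integrin that binds this laminin, differed by -2.65 (SE 0.24, adjusted p = 1.46e-05). Sfn, the epithelial 14-3-3 protein sigma, stood at log2 levels of 6.17 to 6.84 in T11 and 11.72 to 12.77 in KPB25L, a log2 difference of -5.74 (SE 0.25, adjusted p = 1.17e-07). Cdh3, which encodes P-cadherin, differed by -4.89 (SE 0.46, adjusted p = 1.76e-05), and T11 replicate 4 was the highest T11 tumour at a log2 level of 6.62.

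Luminal genes were split: of 12 tested of 18 listed, 7 were lower and 3 higher in T11, with a median log2 difference of -2.77, against 28.4% lower and 19% higher over all genes tested. The median rested on single libraries and on the filter: it was -1.15, -0.97 and -0.9 without KPB25L replicate 1, 3 and 5, over 9 to 11 genes tested, and 0.22 over all 18 genes with no filter on the mean. Krt8, a keratin of simple epithelia, stood at log2 levels of 9.16, 9.2, 10.21 and 8.48 in T11 and 16.01, 15.97, 16.02, 16.08 and 15.91 in KPB25L, a log2 difference of -6.74 (SE 0.27, adjusted p = 6.53e-08). Its partner Krt18 stood at log2 levels of 10.87, 10.97, 11.25 and 10.41 in T11 and 15.02, 15.31, 15.7, 15.79 and 15.47 in KPB25L, a log2 difference of -4.58 (SE 0.19, adjusted p = 8.75e-08). Both keratins showed no overlap, which was a condition of naming Krt18. Krt7, Elf3 and Foxa1 differed by -7.89 (SE 0.97, adjusted p = 0.000105), -7.05 (SE 0.73, adjusted p = 3.34e-05) and -5.58 (SE 0.99, adjusted p = 0.00109) on the log2 scale. Krt19 was not called, with log2 levels of 5.1, 2.31, 9.87 and 7.7 in T11, 4.85, 3.07, 6.03, 6.11 and 3.52 in KPB25L and a log2 difference of 1.52 (SE 1.34, adjusted p = 0.372).

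Gata3, the luminal transcription factor, was called in the other direction. It stood at log2 levels of 8.34, 7.6, 8.6 and 8.48 in T11 and 6.61, 6.22, 6.12, 6.67 and 7.51 in KPB25L, a log2 difference of 1.63 (SE 0.32, adjusted p = 0.00208). Muc1, a mucin of the apical surface, stood at log2 levels of 6.44 to 7.23 in T11 and 4.32 to 5.68 in KPB25L, a log2 difference of 2.08 (SE 0.33, adjusted p = 0.000574). Gata3 is also known in T cells and other leukocytes, and its level in culture was 8.22 in T11 and 4.97 in KPB25L. Esr1, the oestrogen receptor, stood at log2 levels of 8.15, 7.61, 8.01 and 8.52 in T11 and 8.27, 8.87, 8.99, 9.77 and 9.27 in KPB25L, a log2 difference of -0.96 (SE 0.29, adjusted p = 0.0209). The Esr1 groups overlapped, and the call was lost without T11 replicate 2 (-0.81, adjusted p = 0.0628) and without T11 replicate 3 (-0.94, adjusted p = 0.0536).

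Genes of the mesenchymal transition were higher in T11 for 9 of the 17 tested of 18 listed and lower for 3, with a median log2 difference of 0.5, against 19% higher over all genes tested. Vim, the intermediate filament vimentin, stood at log2 levels of 17.63, 17.54, 17.69 and 17.65 in T11 and 14.98, 15.92, 15.89, 16.36 and 15.74 in KPB25L, a log2 difference of 1.85 (SE 0.23, adjusted p = 0.00013). Every T11 tumour was above every KPB25L tumour, and the KPB25L tumours also had high levels. Cultured T11 stood at a log2 level of 14.49 and cultured KPB25L at 6.1.

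The repressors of the transition did not move as one. Zeb1 stood at log2 levels of 12.78, 12.59, 12.61 and 12.81 in T11 and 8.87, 10.32, 10.16, 10.46 and 11.28 in KPB25L, a log2 difference of 2.48 (SE 0.37, adjusted p = 0.000376). Snai1 stood at log2 levels of 12.23, 12.04, 12.34 and 12.38 in T11 and 9.93, 10.11, 9.51, 9.5 and 9.92 in KPB25L, a log2 difference of 2.45 (SE 0.15, adjusted p = 9.2e-07). Foxc2, a forkhead factor of the transition, stood at log2 levels of 8.57, 7.58, 8.75 and 8.75 in T11 and 2.93, 5.83, 4.32, 5.32 and 5.61 in KPB25L, a log2 difference of 3.61 (SE 0.57, adjusted p = 0.00053). For these factors no T11 tumour overlapped KPB25L.

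Snai2, by contrast, stood at log2 levels of 10.26, 10.37, 10.29 and 10.29 in T11 and 10.04, 11.05, 11.23, 11.62 and 10.7 in KPB25L, a log2 difference of -0.62 (SE 0.26, adjusted p = 0.0726) that was not called. Twist2 was lower in T11, at log2 levels of 8.1, 8.28, 8.39 and 7.96 against 10.21, 11.03, 10.35, 11.07 and 10.03, a log2 difference of -2.35 (SE 0.24, adjusted p = 2.77e-05). Cdh2, which encodes N-cadherin, was also lower, at log2 levels of 9.51, 9.41, 9.04 and 9.94 against 12.38, 12.69, 12.33, 12.73 and 11.96, a log2 difference of -2.94 (SE 0.2, adjusted p = 2.05e-06). N-cadherin is known to replace E-cadherin in the transition, and here both genes were lower in T11. Zeb2 had a small log2 difference of 0.44 (SE 0.13, adjusted p = 0.0213) that was lost without T11 replicate 1 (0.39, adjusted p = 0.0678) or T11 replicate 4 (0.35, adjusted p = 0.0708). Fn1, fibronectin, stood at log2 levels of 18.27 to 19.03 in T11 and 17.57 to 18.54 in KPB25L, a log2 difference of 0.6 (SE 0.24, adjusted p = 0.0641).

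Among 8 tested Sox factors of 12 listed, 2 were called higher in T11 and 0 lower, with a median log2 difference of 0.35 (0.26 without Sox2, and 0.14 to 0.22 with any T11 tumour left out). Sox2, a factor of stem and neural progenitor cells, stood at log2 levels of 10.46, 10.27, 10.35 and 10.65 in T11 and was listed at 0 in all 5 KPB25L tumours (adjusted p = 4.79e-09). Sox11, known in neural and mammary progenitors, stood at log2 levels of 10.69, 11.06, 10.29 and 10.76 in T11 and 5.09, 7.77, 6.72, 6.76 and 8.21 in KPB25L, a log2 difference of 3.79 (SE 0.53, adjusted p = 0.000239). In culture Sox2 stood at 7.92 in T11 and 0.41 in KPB25L. A difference in culture was a condition of naming Sox2, which passed the filter on low values through T11 alone. With any T11 tumour left out, Sox2 did not pass the filter on low values, and 1 Sox gene was called higher and 1 lower. Without KPB25L replicate 1, 2 Sox genes were called lower.

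Several of the genes with the largest differences in favour of T11 are known from muscle or neural cells, a grouping made after their values were seen. Of the nerve and Schwann cell list, 4 of 7 tested of 10 listed were lower in T11 and 1 higher. Over all genes tested, 28.4% were lower and 19% higher. The median log2 difference of the list was -0.81. Myf5, a myogenic transcription factor, stood at log2 levels of 10.73, 10.44, 11.03 and 10.72 in T11 and 0, 1.89, 2.26, 1.47 and 1.12 in KPB25L, a log2 difference of 9.38 (SE 0.43, adjusted p = 1.43e-07). Cdh15, the muscle cadherin, stood at log2 levels of 13.74, 13.05, 13.42 and 13.53 in T11 and 9.08, 9.02, 10.18, 10.15 and 10.35 in KPB25L, a log2 difference of 3.68 (SE 0.3, adjusted p = 6.63e-06). Itga7, the laminin-binding integrin of muscle, stood at log2 levels of 13.43, 13.46, 13.56 and 13.41 in T11 and 8.87, 9.49, 9.68, 10.18 and 9.55 in KPB25L, a log2 difference of 3.91 (SE 0.21, adjusted p = 3.81e-07). All 3 genes were also higher in cultured T11, with log2 levels of 10.14, 9.1 and 11.22 against 0, 1.21 and 3.71 in cultured KPB25L. For Myf5 a difference in culture was a condition of naming the gene.

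Nes, the progenitor filament nestin, stood at log2 levels of 15.24, 15.3, 14.97 and 15.34 in T11 and 9.87, 11.38, 11.59, 11.85 and 11.89 in KPB25L, a log2 difference of 3.9 (SE 0.36, adjusted p = 1.6e-05). Nefm, a neurofilament, stood at log2 levels of 11.31, 11.05, 11.07 and 11.33 in T11 and 0, 0, 1.54, 2.78 and 1.21 in KPB25L, a log2 difference of 10.08 (SE 0.54, adjusted p = 3.52e-07). Cspg4, the NG2 proteoglycan of pericytes and glial precursors, stood at log2 levels of 12.86, 12.61, 12.45 and 12.54 in T11 and 7.4, 9.53, 8.9, 9.17 and 9.37 in KPB25L, a log2 difference of 3.74 (SE 0.37, adjusted p = 2.61e-05). Glp1r, Doc2b and Ptprn, which are known from hormone-secreting and neural cells, differed by 9.69 (SE 0.52, adjusted p = 3.52e-07), 8.39 (SE 0.61, adjusted p = 2.86e-06) and 3.65 (SE 0.37, adjusted p = 2.88e-05) on the log2 scale. None of these genes overlapped between the lines, which for Nes, Cspg4 and Ptprn was a condition of naming them.

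Ckm and Myh4, genes of contractile muscle, were not called. Ckm, muscle creatine kinase, stood at log2 levels of 4.47, 12.35, 4.84 and 6.57 in T11 and 7.89, 14.88, 9.77, 10.98 and 8.59 in KPB25L, a log2 difference of -3.36 (SE 1.75, adjusted p = 0.139). Myh4, a fast myosin, stood at log2 levels of 1.01, 12.65, 1.98 and 8.03 in T11 and 8.6, 15.12, 9.19, 10.9 and 7.23 in KPB25L, a log2 difference of -4.29 (SE 2.35, adjusted p = 0.157). Replicate 2 of each line was the highest of its group for both genes. Of 16 tested muscle genes of 18 listed, 3 were higher and 0 lower, against 19% higher over all genes tested, with a median log2 difference of -0.63. The count was 6 lower without T11 replicate 2, with a median of -1.47.

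Other genes with large differences came from several roles. Crabp2, a retinoic acid carrier, stood at log2 levels of 13.51, 13.54, 13.63 and 13.77 in T11 and 8.97, 7.64, 9.22, 9.91 and 9.25 in KPB25L, a log2 difference of 4.61 (SE 0.36, adjusted p = 4.87e-06). S100a4, a calcium-binding protein known from metastatic and mesenchymal cells, stood at log2 levels of 16.48, 16.77, 16.45 and 16.36 in T11 and 12.78, 13.92, 13.16, 13.55 and 12.61 in KPB25L, a log2 difference of 3.31 (SE 0.25, adjusted p = 3.39e-06). Cxcl12, the ligand of CXCR4, stood at log2 levels of 15.16, 14.96, 15.28 and 15.12 in T11 and 9.6, 12.61, 11.73, 12.09 and 12.16 in KPB25L, a log2 difference of 3.49 (SE 0.5, adjusted p = 0.000281). In each case all T11 tumours were above KPB25L, and a lack of overlap was a condition of naming these genes. Fam189b, Mxra7, Adamts14, a procollagen protease, and Azin2, a regulator of polyamine synthesis, differed by 3.91, 3.4, 3.64 and 3.5 on the log2 scale. Igfbp5, an IGF-binding protein, stood at log2 levels of 14.95, 14.51, 15.27 and 14.85 in T11 and 8.89, 12.39, 10.91, 9.91 and 14.47 in KPB25L, a log2 difference of 3.58 (SE 0.92, adjusted p = 0.00911), with KPB25L replicate 5 near the T11 range.

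In favour of KPB25L, Wfdc2, a secreted protein of glandular epithelium, stood at log2 levels of 1.6, 1.86, 6.19 and 2.79 in T11 and 16.01, 15.31, 14.54, 14.86 and 14.88 in KPB25L, a log2 difference of -12.01 (SE 0.81, adjusted p = 1.73e-06). Tmprss11e, an epithelial serine protease, was listed at 0 in 3 T11 tumours and at 0.88 in T11 replicate 4, against log2 levels of 12.78, 10.3, 12.23, 12.05 and 11.89 in KPB25L. Acan, the cartilage proteoglycan aggrecan, stood at log2 levels of 0, 1.21, 1.31 and 0 in T11 and 7.94, 13.29, 12.4, 12.34 and 10.97 in KPB25L, a log2 difference of -10.76 (SE 0.93, adjusted p = 1.01e-05). Il1rl1, the receptor of IL-33, stood at log2 levels of 7.22, 7.15, 7.24 and 8.88 in T11 and 14.97, 15.59, 14.73, 15.08 and 13.42 in KPB25L, a log2 difference of -7.14 (SE 0.46, adjusted p = 1.3e-06). In culture Il1rl1 stood at 2.52 in T11 and 11.62 in KPB25L, so the difference was also present in the cultured lines.

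Cxadr, the coxsackie and adenovirus receptor of cell junctions, stood at log2 levels of 7.64, 7.92, 7.73 and 9.49 in T11 and 13.75, 13.39, 13.34, 13.69 and 12.84 in KPB25L, a log2 difference of -5.21 (SE 0.36, adjusted p = 1.99e-06). Npnt, an integrin ligand of basement membranes, stood at log2 levels of 9.54, 9.28, 9.26 and 9.8 in T11 and 13.06, 13.11, 14.26, 14.12 and 13.47 in KPB25L, a log2 difference of -4.14 (SE 0.26, adjusted p = 1.14e-06). Stard10, Card10, Atp9a and Aim1 differed by -3.8, -3.75, -3.96 and -3.96 on the log2 scale with no overlap, a condition of naming them. Wisp2, a CCN-family matrix protein, Cpxm2 and Crispld2 differed by -5.83, -4.47 and -3.6, and in culture each was at a log2 level of at most 2.56 in either line.

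Hox genes give cells their position along the body axis and are laid out in clusters. Of 39 listed, 26 were tested, and 12 were higher and 7 lower in T11, with a median log2 difference of 0.42, against 19% higher and 28.4% lower over all genes tested. The median was 0.24 without T11 replicate 3, and with the spread shared by all tumour groups 5 were higher and 5 lower. In the Hoxb cluster the neighbours Hoxb9 to Hoxb5 (chr11:96271457-96306121) were all lower in T11. Hoxb9 stood at log2 levels of 6.59, 6.06, 5.29 and 6.08 in T11 and 10.43, 11.05, 10.29, 10.2 and 10.32 in KPB25L, a log2 difference of -4.45 (SE 0.27, adjusted p = 9.52e-07). Hoxb7 stood at log2 levels of 6.92, 6.06, 6.3 and 6.49 in T11 and 10.34, 10.47, 10.48, 10.52 and 10.57 in KPB25L, a log2 difference of -4.03 (SE 0.18, adjusted p = 1.33e-07). Hoxb8, Hoxb6 and Hoxb5 differed by -3.5, -3.63 and -2.91 on the log2 scale. None of these 5 genes overlapped between the lines.

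At the other end of the cluster, Hoxb2 stood at log2 levels of 9.57, 9.76, 9.51 and 9.29 in T11 and 6.33, 7.49, 7.48, 7.62 and 9.28 in KPB25L, a log2 difference of 1.89 (SE 0.46, adjusted p = 0.00712). Hoxb4 was also higher, by 0.66 (SE 0.14, adjusted p = 0.00368), and Hoxb3 differed by 0.3 (SE 0.26, adjusted p = 0.364). Hoxb13, far beyond the rest of the cluster, was listed at 0 in all 4 T11 tumours and did not pass the filter, against log2 levels of 8.69, 8.19, 7.65, 8.13 and 6.78 in KPB25L. So the Hoxb genes next to Hoxb5 on its other side did not share its direction.

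In the Hoxc cluster, Hoxc8 to Hoxc4 (chr15:102990607-103036852) were higher in T11. Hoxc6, a gene active in the developing mammary gland, stood at log2 levels of 11.61, 11.85, 11.54 and 11.37 in T11 and 7.92, 8.63, 9.18, 9.3 and 9.46 in KPB25L, a log2 difference of 2.69 (SE 0.29, adjusted p = 4.14e-05). Hoxc8, Hoxc5 and Hoxc4 differed by 2.7 (SE 0.36, adjusted p = 0.00017), 3.07 (SE 0.31, adjusted p = 2.93e-05) and 2.62 (SE 0.25, adjusted p = 2.07e-05). The annotated span of Hoxc5 holds Hoxc6, Hoxc8 and Hoxc9 and part of Hoxc10, so values of these genes may share reads. The annotated span of Hoxc4 overlaps neither Hoxc5 nor Hoxc6. Hoxc9 had a small log2 difference of 0.64 (adjusted p = 0.0233), and its call was lost on leaving out T11 replicate 1, 2 or 3 or KPB25L replicate 3, with adjusted p from 0.0502 to 0.0668.

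Hoxc10 was lower in T11, at log2 levels of 5.19, 5.81, 5.67 and 4.41 against 5.65, 6.84, 7.62, 7.55 and 9.38, a log2 difference of -2.14 (SE 0.64, adjusted p = 0.0188). Its groups overlapped, and the call was lost without T11 replicate 4 (-1.85, adjusted p = 0.0567). Hoxa9 stood at log2 levels of 11.16, 11.58, 10.95 and 10.96 in T11 and 9.41, 9.15, 10.17, 10.18 and 8.8 in KPB25L, a log2 difference of 1.62 (SE 0.29, adjusted p = 0.00122). In culture Hoxb7 stood at 0 in T11 and 9.64 in KPB25L, and Hoxc6 at 9.91 and 6.16. Between untreated glands of the 2 strains, 0 of 27 tested Hox genes were called, against 1.31% of all genes tested there.

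**Figure D2:**
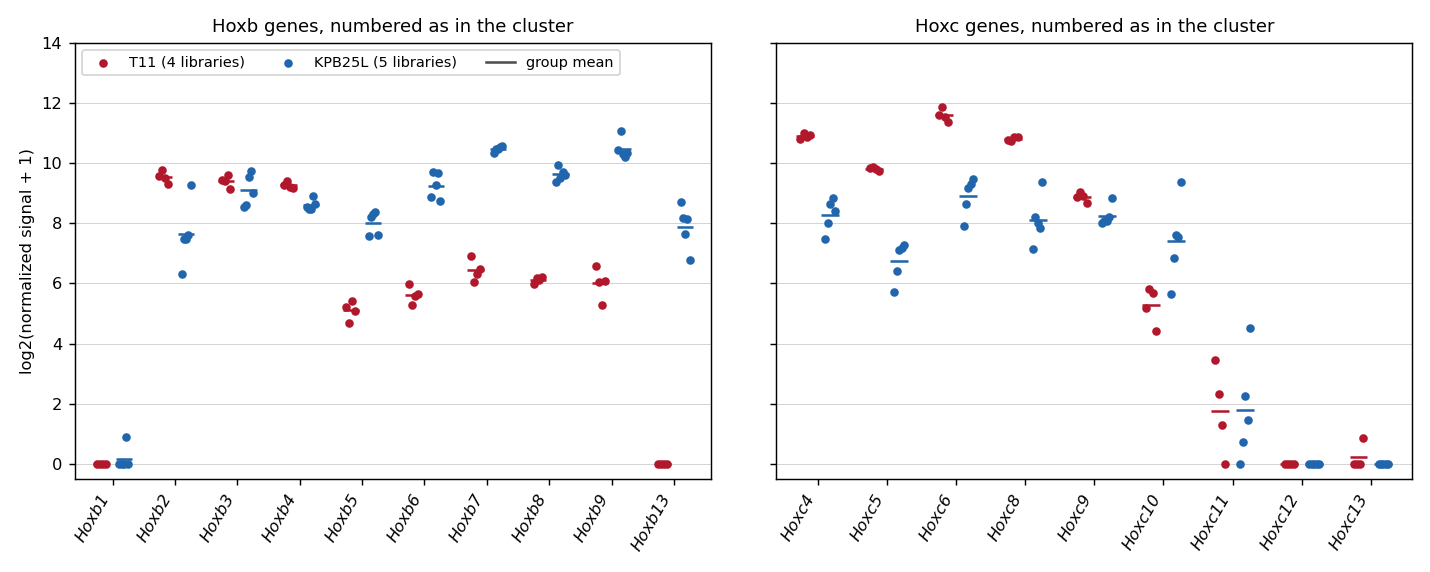
Log2 levels of the Hoxb and Hoxc genes (horizontal axis, in cluster order) in each of the 4 T11 (red) and 5 KPB25L (blue) tumours, with a line at each group mean. Hoxb5 to Hoxb9 are lower in all T11 tumours and Hoxc4 to Hoxc8 higher.

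Growth factor genes split evenly, with 9 of the 29 tested of 30 listed higher in T11 and 8 lower. Over all genes tested, 19% were higher and 28.4% lower. Igf2, a fetal growth factor, stood at log2 levels of 11.72, 11.59, 12.22 and 12.14 in T11 and 5.57, 6.73, 7.59, 7.43 and 7.61 in KPB25L, a log2 difference of 4.93 (SE 0.4, adjusted p = 5.94e-06). Igf1, its relative, went the other way, at log2 levels of 8.12, 9.13, 8.62 and 8.72 in T11 and 12.86, 12.22, 12.11, 12.49 and 13.64 in KPB25L, a log2 difference of -4.02 (SE 0.31, adjusted p = 4.37e-06). The IGF genes thus exchanged places between the lines. In culture Igf2 stood at 7.19 in T11 and 0.73 in KPB25L, while Igf1 was at most 0.67 in either.

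Bmp genes also differed in direction. Bmp2 stood at log2 levels of 10.27, 9.45, 10.27 and 10.45 in T11 and 5.72, 5.67, 7.93, 7.82 and 8.82 in KPB25L, a log2 difference of 2.92 (SE 0.63, adjusted p = 0.00338). Bmp7 stood at log2 levels of 1.01, 1.21, 1.98 and 1.82 in T11 and 9.39, 8.98, 12.34, 11.86 and 10.09 in KPB25L, a log2 difference of -9.03 (SE 0.67, adjusted p = 3.43e-06). Fgf2 and Pdgfc were higher in T11, by 2.08 (SE 0.29, adjusted p = 0.000264) and 1.74 (SE 0.16, adjusted p = 1.47e-05), and Tgfa and Hgf, ligands of EGFR and MET, were lower, by -4.22 (SE 0.39, adjusted p = 1.55e-05) and -3.34 (SE 0.31, adjusted p = 1.54e-05).

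Of 27 tested receptor tyrosine kinases of 30 listed, 4 were higher in T11 and 8 lower, against 19% and 28.4% of all genes tested. The list count was 5 lower with each of T11 replicate 2, T11 replicate 3 and T11 replicate 4 left out in turn. Erbb2, which encodes HER2, stood at log2 levels of 8.95, 8.73, 8.77 and 9.06 in T11 and 12.26, 12.15, 12.47, 12.57 and 12.34 in KPB25L, a log2 difference of -3.48 (SE 0.12, adjusted p = 2.88e-08). Erbb3, its partner, stood at log2 levels of 6.56 to 7.27 in T11 and 9.64 to 10.67 in KPB25L, a log2 difference of -3.45 (SE 0.25, adjusted p = 2.55e-06). Fgfr2 and Fgfr1, receptors of fibroblast growth factors, had opposite signs: Fgfr2 differed by -5.33 (SE 0.68, adjusted p = 0.000141) and Fgfr1 by 1.32 (SE 0.16, adjusted p = 9.19e-05). FGFR2 is best known from epithelia and FGFR1 from mesenchyme. Pdgfra was lower in T11, by -2.3 (SE 0.28, adjusted p = 9.04e-05), and Ret and Ddr2, a receptor of fibrillar collagen, were higher, by 1.66 (SE 0.45, adjusted p = 0.0118) and 1.19 (SE 0.2, adjusted p = 0.000681).

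In the Wnt pathway, 14 of 29 tested genes of 32 listed were lower in T11 and 5 higher, with a median log2 difference of -0.84, against 28.4% lower and 19% higher over all genes tested. Among ligands, Wnt10b stood at log2 levels of 9.42, 8.36, 9.09 and 8.62 in T11 and 3.54, 2.82, 2.74, 3.3 and 4.61 in KPB25L, a log2 difference of 5.47 (SE 0.41, adjusted p = 3.83e-06). Among receptors, Fzd7 stood at log2 levels of 11.17, 10.84, 11.01 and 11.48 in T11 and 14.5, 14.08, 14.37, 14.72 and 14.32 in KPB25L, a log2 difference of -3.28 (SE 0.16, adjusted p = 1.7e-07). Lgr5, the receptor of R-spondins, stood at log2 levels of 5.22, 4.84, 5.06 and 5.47 in T11 and 8.88, 8.78, 9.3, 9.99 and 10.56 in KPB25L, a log2 difference of -4.36 (SE 0.36, adjusted p = 8.07e-06). The 2 secreted inhibitors shown here had opposite signs, with Dkk2 at 4.25 (SE 0.43, adjusted p = 3.08e-05) and Sfrp1 at -3.78 (SE 0.47, adjusted p = 0.000121). Lef1, a nuclear effector and target, stood at log2 levels of 8.63, 8.4, 8.1 and 7.89 in T11 and 5.92, 6.21, 5.38, 6.03 and 8.21 in KPB25L, a log2 difference of 1.91 (SE 0.49, adjusted p = 0.00945), with KPB25L replicate 5 inside the T11 range.

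Of 17 tested imprinted and oncofetal genes of 18 listed, 5 were higher and 6 lower in T11, with a median log2 difference of -0.94 (-0.43 without Igf2bp1), against 19% higher and 28.4% lower over all genes tested. The median was -1.51 without KPB25L replicate 1 and -0.24 without KPB25L replicate 5, and 4 to 8 genes were lower with 1 tumour left out. Igf2bp1 and Igf2bp3 encode related fetal RNA-binding proteins, and they differed in opposite directions. Igf2bp1 was listed at 0 in all 4 T11 tumours and stood at log2 levels of 10.81, 11.07, 10.86, 11.06 and 9.81 in KPB25L (adjusted p = 9.19e-09). It passed the filter on low values through KPB25L alone and is among the 6 lower genes. Igf2bp3 stood at log2 levels of 9.78, 9.77, 9.59 and 9.77 in T11 and 3.72, 5.04, 4.68, 4.3 and 3.42 in KPB25L, a log2 difference of 5.49 (SE 0.33, adjusted p = 9.2e-07). Peg10, a paternally expressed imprinted gene, was higher in T11 by 3.13 (SE 0.38, adjusted p = 9.83e-05), and Afp, alpha-fetoprotein, was lower by -4.72 with adjusted p = 3.28e-05. H19, the imprinted RNA next to Igf2, stood at log2 levels of 9.38, 11.61, 7.01 and 10.36 in T11 and 8.48, 12.2, 11.93, 12.56 and 13.82 in KPB25L, a log2 difference of -2.21 (SE 1.09, adjusted p = 0.12). Although Igf2 did not overlap between the lines, its imprinted neighbour H19 did.

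Driver genes of breast cancer were higher in T11 for 8 of 24 and lower for 6, against 19% higher and 28.4% lower over all genes tested, with counts of 5 higher with each of T11 replicate 1 and T11 replicate 3 left out in turn and 3 lower with each of T11 replicate 1 and T11 replicate 3 left out in turn. Pik3ca was higher, at log2 levels of 12.72 to 13 in T11 and 11.58 to 12.36 in KPB25L, a log2 difference of 0.86 (SE 0.16, adjusted p = 0.0016). Cdkn2a, which encodes inhibitors of the cell cycle and of MDM2, differed by 0.47 (SE 0.12, adjusted p = 0.00963). Brca2 and Mdm4 were lower in T11, by -0.83 (SE 0.23, adjusted p = 0.0143) and -0.64 (SE 0.17, adjusted p = 0.01).

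Among 16 p53 target genes, 4 were higher and 4 lower in T11, against 19% and 28.4% of all genes tested. Perp, a p53 target that is also a desmosome protein, stood at log2 levels of 4.34, 4.55, 5.18 and 5.69 in T11 and 11.95, 11.21, 11.28, 11.18 and 11.99 in KPB25L, a log2 difference of -6.58 (SE 0.31, adjusted p = 1.57e-07). Pmaip1, which encodes NOXA, was lower by -1.58 (adjusted p = 7.78e-05), and Eda2r, a receptor of the TNF family, was higher by 2.6 (adjusted p = 0.00202). The targets most used as readouts were not called: Cdkn1a differed by 0.8 (SE 0.3, adjusted p = 0.0519) and Mdm2 by 0.28 (SE 0.11, adjusted p = 0.0566). Cdkn1a stood at log2 levels of 11.23, 10.93, 11.66 and 12.58 in T11 and 10.41, 10.59, 10.71, 11.19 and 11.1 in KPB25L, with T11 replicate 4 the highest.

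Cell cycle genes were called lower in T11 at about the share of all genes tested. Mki67, the proliferation marker, stood at log2 levels of 12.86, 12.76, 12.42 and 12.82 in T11 and 13.43, 14.24, 13.56, 13.77 and 12.79 in KPB25L, a log2 difference of -0.84 (SE 0.24, adjusted p = 0.0157). KPB25L replicate 5 lay within the T11 range, and without T11 replicate 3 the difference was -0.74 (adjusted p = 0.0523). Of 20 mitosis genes, 6 were lower and 0 higher, against 28.4% lower over all genes tested, and the count was 4 higher without KPB25L replicate 2 and 10 lower without KPB25L replicate 5. Against KPB25L replicate 5 alone, 6 mitosis genes were higher and 1 lower. Aurka and Foxm1, a mitotic kinase and a factor of the mitotic programme, differed by -1.45 (SE 0.13, adjusted p = 1.44e-05) and -1.34 (SE 0.26, adjusted p = 0.00191), and Plk1 by -0.86 (SE 0.17, adjusted p = 0.00239). Ccna2, which encodes cyclin A2, was not called at 0.37 (SE 0.26, adjusted p = 0.267). Of 20 DNA replication genes, 6 were lower and 0 higher, and the count was 11 lower without KPB25L replicate 5. Rrm1, the large subunit of ribonucleotide reductase, differed by -0.9 (SE 0.16, adjusted p = 0.00112).

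Genes of hypoxia and glycolysis were higher in T11 for 13 of 18 and lower for 0, against 19% higher over all genes tested, with a median log2 difference of 1.46. Mean log2 levels of the list were 13.15, 12.5, 13.42 and 13.91 in T11 and 11.72, 10.91, 11.77, 12.09 and 11 in KPB25L. T11 replicate 4 was the highest tumour and T11 replicate 2 the lowest of its group, and the groups did not overlap. Car9, the carbonic anhydrase induced by low oxygen, stood at log2 levels of 11.89, 10.68, 12.32 and 12.97 in T11 and 6.52, 6.43, 8.25, 8.73 and 6.53 in KPB25L, a log2 difference of 4.68 (SE 0.59, adjusted p = 0.000123). Egln3, an oxygen-sensing prolyl hydroxylase, stood at log2 levels of 12.74, 12.62, 12.87 and 13.26 in T11 and 7.61, 6.79, 8.45, 9.09 and 6.52 in KPB25L, a log2 difference of 5.18 (SE 0.47, adjusted p = 1.46e-05).

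The glucose and lactate transporters followed. Slc2a1, which encodes the glucose transporter GLUT1, stood at log2 levels of 13.73, 13.12, 14.25 and 14.67 in T11 and 12.36, 11.49, 12.45, 12.85 and 11.26 in KPB25L, a log2 difference of 1.86 (SE 0.38, adjusted p = 0.00243). Slc16a3, the lactate exporter MCT4, stood at log2 levels of 13.22, 12.21, 13.3 and 14.07 in T11 and 11.92, 9.67, 11.49, 11.58 and 9.67 in KPB25L, a log2 difference of 2.33 (SE 0.54, adjusted p = 0.00522). Pgk1, a glycolytic enzyme, differed by 1.52 (SE 0.21, adjusted p = 0.000221), and Adm, adrenomedullin, by 2.61 (SE 0.6, adjusted p = 0.00475) with KPB25L replicate 5 inside the T11 range. In culture 5 of the 18 genes were more than 1 log2 unit higher in T11 and 1 was lower, against 17.9% higher and 26.7% lower over all genes compared there.

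**Figure D3:**
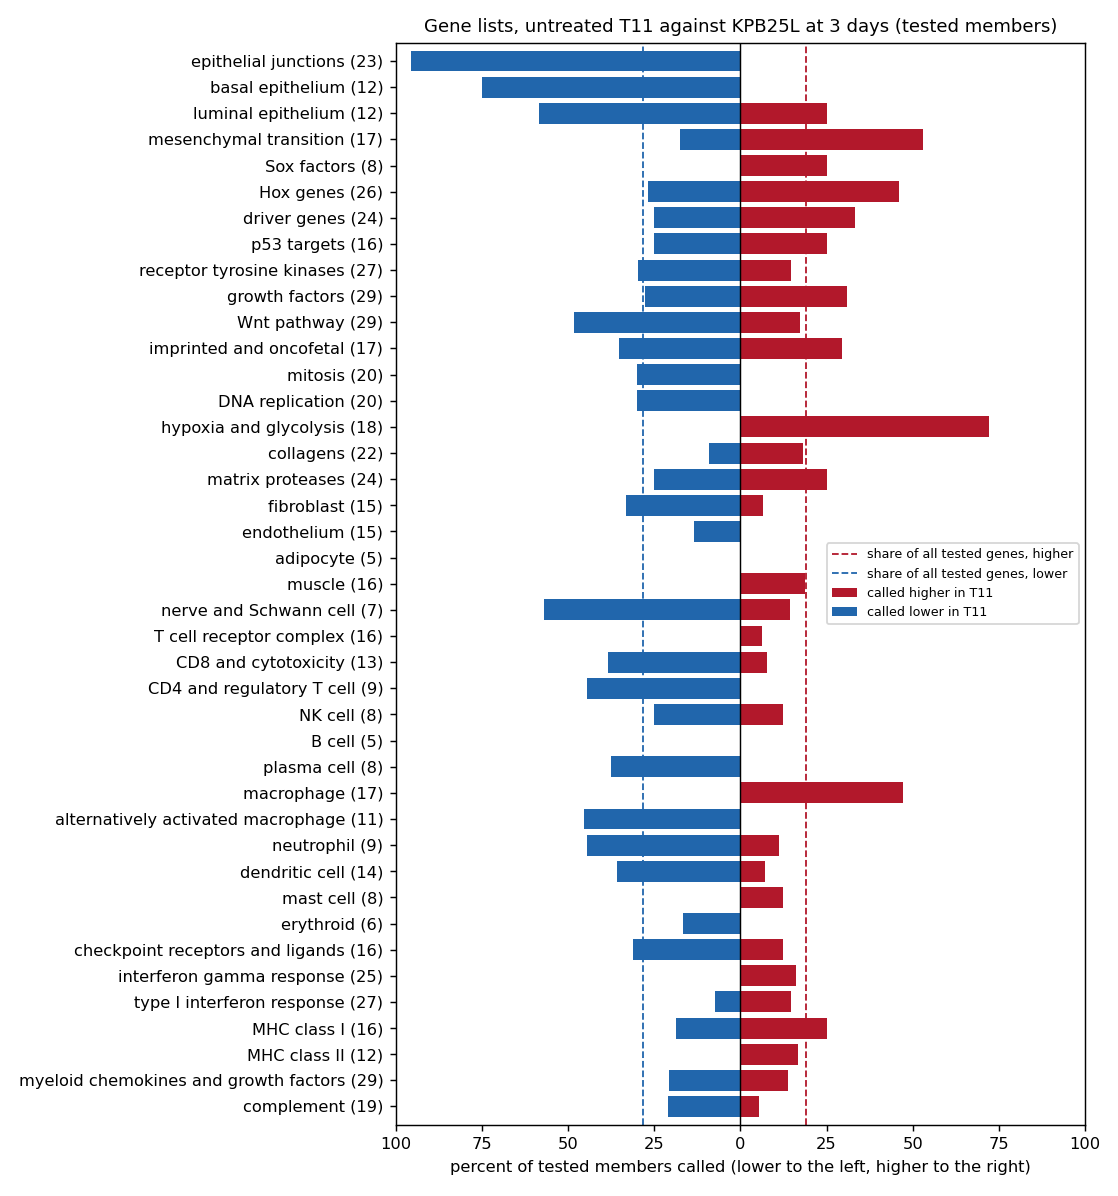
Percent of the tested genes of each list called higher (red, right) or lower (blue, left) in T11 at 3 days, with the number tested in brackets. Dashed lines mark the shares of all genes tested, 19% higher and 28.4% lower. Epithelial junctions reach furthest left and hypoxia and glycolysis furthest right.

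Stromal markers were mixed, and KPB25L replicate 5 stood apart in several of them. Replicate 5 was the only untreated KPB25L tumour of this time on its flow cell, so tumour and flow cell cannot be told apart. Mean log2 levels of the fibroblast list were 12.2, 11.98, 12.19 and 12.26 in T11 and 11.45, 12.47, 12.15, 12.36 and 13.68 in KPB25L, where replicate 5 was the highest. Of 15 fibroblast genes, 5 were lower and 1 higher in T11, against 28.4% and 19% of all genes tested. The count was 2 higher without KPB25L replicate 1 and 4 higher without KPB25L replicate 5. Their median log2 difference was -0.72, and -0.34 without KPB25L replicate 5. Lum, the matrix proteoglycan lumican, stood at log2 levels of 11.34, 11.16, 10.66 and 10.43 in T11 and 12.28, 12.94, 12.9, 12.74 and 15.36 in KPB25L, a log2 difference of -2.35 (SE 0.53, adjusted p = 0.00464). Col1a1, the main fibrillar collagen, stood at log2 levels of 17.3, 17.06, 16.97 and 17.34 in T11 and 17.18, 17.82, 17.99, 17.97 and 19.79 in KPB25L, a log2 difference of -0.98 (SE 0.43, adjusted p = 0.0854). Col4a5, a chain of basement membrane collagen, was higher in T11, at log2 levels of 10.53 to 10.94 against 4.08 to 7.86, a log2 difference of 4.6 (SE 0.61, adjusted p = 0.00017).

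Matrix proteases were split, with 6 of 24 tested of 26 listed higher and 6 lower, against 19% and 28.4% of all genes tested. Counts were 3 higher with each of T11 replicate 3, T11 replicate 4, KPB25L replicate 3 and KPB25L replicate 4 left out in turn. Mmp10, stromelysin 2, stood at log2 levels of 7.72, 6.37, 6.91 and 8.18 in T11 and 12.07, 10.67, 12.61, 13.29 and 12.04 in KPB25L, a log2 difference of -4.84 (SE 0.51, adjusted p = 3.61e-05). Mmp13, a collagenase, stood at log2 levels of 9.81, 7.43, 9.24 and 9.87 in T11 and 13.19, 9.9, 12.94, 12.81 and 13.8 in KPB25L, a log2 difference of -3.44 (SE 0.76, adjusted p = 0.00397), and KPB25L replicate 2 was close to the T11 range. Plau, the urokinase, was higher in T11 by 1.17 (SE 0.24, adjusted p = 0.00278). The defining adipocyte markers were called for 0 of 5 tested genes of 12 listed in either direction.

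Macrophage genes were higher in T11 for 8 of the 17 tested of 18 listed and lower for 0, against 19% higher over all genes tested, with a median log2 difference of 0.49. Adgre1, which encodes F4/80, stood at log2 levels of 12.24, 11.63, 11.98 and 12.11 in T11 and 11.35, 11.67, 10.88, 10.95 and 11.42 in KPB25L, a log2 difference of 0.74 (SE 0.18, adjusted p = 0.00764). The Adgre1 groups overlapped by 1 tumour each. Cd68, a lysosomal protein of macrophages, differed by 0.76 (SE 0.15, adjusted p = 0.00222), and Siglec1, a sialic acid receptor of tissue macrophages, by 1.23 (SE 0.18, adjusted p = 0.000318). Csf1r, the receptor of CSF1, differed by 0.57 (SE 0.17, adjusted p = 0.0167), and without T11 replicate 1 by 0.50 (adjusted p = 0.0549). Gpnmb was also higher, by 2.16 (SE 0.43, adjusted p = 0.00206), and stood at 11.67 in cultured T11 and 7.72 in cultured KPB25L. The macrophage count was 1 in the fit that shared its spread over 243 libraries.

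Genes of alternatively activated macrophages went the other way, with 5 of 11 lower and 0 higher, against 28.4% lower over all genes tested. Their median log2 difference was -1.09 (-0.42 without KPB25L replicate 5), and the count was 3 lower without KPB25L replicate 4. Chil3, a chitinase-like protein, stood at log2 levels of 1.01, 2.65, 1.98 and 4.47 in T11 and 4.56, 6.39, 6.84, 7.39 and 10.12 in KPB25L, a log2 difference of -4.53 (SE 1.02, adjusted p = 0.00445). Ccl17, a ligand of CCR4, stood at log2 levels of 4.47, 4.84, 3.83 and 3.86 in T11 and 7.47, 8.16, 7.34, 6.91 and 10.92 in KPB25L, a log2 difference of -3.91 (SE 0.72, adjusted p = 0.00135). Clec10a, a lectin of macrophages and dendritic cells, differed by -2.35 (SE 0.53, adjusted p = 0.00436). KPB25L replicate 5 was the highest tumour for all 3 genes, and none of the 3 overlapped between the lines. Of all 11 genes, 4 did not overlap, against 41% of all genes tested.

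Among neutrophil genes, 4 of 9 tested of 16 listed were lower in T11 and 1 higher, against 28.4% and 19% of all genes tested. S100a8, the neutrophil alarmin, stood at log2 levels of 4.77, 4.55, 7.47 and 8.52 in T11 and 7.74, 5.99, 6.8, 6.32 and 6.61 in KPB25L, a log2 difference of -0.37 (SE 0.79, adjusted p = 0.728). T11 replicates 3 and 4 were above T11 replicates 1 and 2, and the S100a8 groups overlapped. Trem1, a receptor of activated neutrophils and monocytes, was lower in T11, at log2 levels of 6.54, 6.88, 7.14 and 8.74 against 9.65, 9.16, 9.49, 9.4 and 8.99, a log2 difference of -2.01 (SE 0.39, adjusted p = 0.00184). The neutrophil growth factor Csf3 differed by -2.4 (SE 0.66, adjusted p = 0.013), and the eosinophil attractant Ccl11 by -3.18 (SE 0.51, adjusted p = 0.000597). Ptgs2, the inducible prostaglandin synthase, differed by -2.28 (SE 0.48, adjusted p = 0.00305), and Ccl7, a monocyte attractant, by -1.31 (SE 0.34, adjusted p = 0.00942). Cx3cl1, the ligand of CX3CR1, was higher in T11, at log2 levels of 13.87 to 14.5 against 12.35 to 13.85, a log2 difference of 1.41 (SE 0.28, adjusted p = 0.00217).

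Of 14 dendritic cell genes, 5 were lower and 1 higher in T11, against 28.4% and 19% of all genes tested. The count was 3 lower with each of T11 replicate 2 and T11 replicate 3 left out in turn. Clec9a, the receptor of cross-presenting dendritic cells, stood at log2 levels of 6.22, 4.63, 4.99 and 6.1 in T11 and 9.06, 8.99, 8.95, 9.47 and 8.7 in KPB25L, a log2 difference of -3.55 (SE 0.35, adjusted p = 2.41e-05). Zbtb46, a factor of classical dendritic cells, stood at log2 levels of 6.91, 7.24, 6.68 and 7.08 in T11 and 10.45, 9.96, 9.46, 9.52 and 10.16 in KPB25L, a log2 difference of -2.93 (SE 0.23, adjusted p = 5.26e-06). Cultured KPB25L, a cell line, stood at 4.91 for Clec9a and 9.55 for Zbtb46, against 0 and 4.36 in cultured T11. The part of tumour cells in these tumour values was not tested. Batf3 was lower by -1.39 (SE 0.32, adjusted p = 0.00528), and Irf8, which serves macrophages as well, was higher by 0.67 (SE 0.15, adjusted p = 0.00463).

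T cell genes were mostly not called. Of 16 genes of the T cell receptor complex, 1 was higher and 0 lower, and mean log2 levels of the list were 7.01, 4.95, 6.03 and 6.04 in T11 and 6.23, 6.34, 5.31, 5.8 and 7.68 in KPB25L. Cd8a stood at log2 levels of 6.06, 3.15, 4.93 and 5.32 in T11 and 6.1, 5.98, 4.18, 5.19 and 6 in KPB25L, a log2 difference of -0.62 (SE 0.61, adjusted p = 0.424). Cd4, found on helper T cells and some macrophages, stood at log2 levels of 8.85, 6.8, 7.82 and 7.99 in T11 and 8.95, 9.49, 8.23, 8.3 and 10.36 in KPB25L, a log2 difference of -1.2 (SE 0.5, adjusted p = 0.0684). Foxp3, the factor of regulatory T cells, stood at log2 levels of 6.77, 6.2, 6.43 and 6.3 in T11 and 7.03, 6.47, 6.03, 6.13 and 8.45 in KPB25L, a log2 difference of -0.4 (SE 0.46, adjusted p = 0.502). All 3 markers overlapped, with KPB25L replicate 5 the highest for Cd4 and Foxp3 and T11 replicate 2 the lowest of its group. Trbc2, a constant segment of the T cell receptor, was the exception, at log2 levels of 10.08, 10.46, 9.95 and 9.6 in T11 and 6.85, 7.23, 6.13, 6.44 and 8.73 in KPB25L, a log2 difference of 2.95 (SE 0.46, adjusted p = 0.000492).

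Within CD8 and cytotoxicity genes, 5 of the 13 tested of 16 listed were lower in T11 and 1 higher. Shares over all genes tested were 28.4% and 19%. The count was 2 lower without KPB25L replicate 4 and 3 lower without KPB25L replicate 3. Gzmb, granzyme B, stood at log2 levels of 6.54, 3.95, 5.94 and 7.22 in T11 and 6.53, 4.73, 6.69, 8.26 and 7.87 in KPB25L, a log2 difference of -0.91 (SE 0.79, adjusted p = 0.371). Gzmd, a granzyme of the same gene cluster, stood at log2 levels of 1.6, 2.92, 2.44 and 2.66 in T11 and 6.13, 4.18, 9.37, 11.62 and 8.76 in KPB25L, a log2 difference of -5.61 (SE 1.25, adjusted p = 0.00416). Gzmc, Gzme and Gzmf differed by -3.88 (SE 0.69, adjusted p = 0.00113), -5.29 (SE 0.92, adjusted p = 0.000996) and -6.57 (SE 1.55, adjusted p = 0.00582). These granzymes are near copies of each other, so the counting may have split their reads. Gzma went the other way, at log2 levels of 6.97, 5.75, 6.1 and 7.1 in T11 and 2.93, 3.86, 2.26, 3.54 and 5.74 in KPB25L, a log2 difference of 2.81 (SE 0.65, adjusted p = 0.00494).

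Ifng, the cytokine of activated T and NK cells, did not pass the filter and stood at log2 levels of 4.47, 1.86, 3.83 and 1.82 in T11 and 2.66, 3.07, 0, 0.91 and 4.02 in KPB25L, with overlap. Of 9 tested CD4 and regulatory T cell genes of 12 listed, 4 were lower and 0 higher, against 28.4% lower over all genes tested. The count was 2 lower with each of T11 replicate 2, T11 replicate 3 and T11 replicate 4 left out in turn. Il2ra, the high-affinity IL-2 receptor chain, was lower in T11, at log2 levels of 6.41, 4.9, 4.93 and 4.9 against 8.03, 6.82, 6.19, 6.99 and 9.12, a log2 difference of -2.15 (SE 0.58, adjusted p = 0.0118). Tnfrsf18, which encodes GITR, differed by -1.66 (SE 0.48, adjusted p = 0.0167).

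Of the checkpoint genes targeted in the series, Ctla4 was called lower in T11 and Pdcd1 was not called. Cd274, the gene of a PD1 ligand, was not called either. Pdcd1, which encodes PD1, stood at log2 levels of 7.07, 3.82, 5.71 and 5.81 in T11 and 6.18, 6.15, 4.45, 6 and 6.52 in KPB25L, a log2 difference of -0.26 (SE 0.63, adjusted p = 0.761). Ctla4 stood at log2 levels of 5.14, 3.15, 4.53 and 4.85 in T11 and 6.42, 5.51, 5.14, 6.08 and 8.58 in KPB25L, a log2 difference of -1.92 (SE 0.68, adjusted p = 0.0392). The Ctla4 call was lost on leaving out T11 replicate 2 (-1.50, adjusted p = 0.109), T11 replicate 3, T11 replicate 4, KPB25L replicate 1 or KPB25L replicate 4, with adjusted p from 0.0564 in the others. Cd274, which encodes PD-L1, stood at log2 levels of 9.31, 6.84, 8.67 and 9.48 in T11 and 9.01, 8, 8.48, 8.61 and 9.56 in KPB25L, a log2 difference of -0.16 (SE 0.52, adjusted p = 0.824). All 3 overlapped between the lines. Means of Pdcd1 and Cd274 were lower in T11 with all tumours, and without T11 replicate 2 their differences were 0.34 and 0.42.

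Of 16 tested checkpoint receptors and ligands of 18 listed, 5 were lower and 2 higher in T11, with counts of 1 higher with each of T11 replicate 3, T11 replicate 4, KPB25L replicate 1 and KPB25L replicate 5 left out in turn, 2 lower without T11 replicate 3 and 3 lower with each of T11 replicate 2 and T11 replicate 4 left out in turn. Tigit stood at log2 levels of 6.78, 5.67, 6.3 and 6.98 in T11 and 9.12, 8.21, 8.42, 8.53 and 8.02 in KPB25L, a log2 difference of -2.03 (SE 0.31, adjusted p = 0.000452). Cultured KPB25L stood at 11.31 for Tigit and cultured T11 at 5.35, so this lymphocyte receptor gene had signal in a cultured cancer line. Cd47, the signal that inhibits phagocytosis, differed by -1.06 (SE 0.13, adjusted p = 0.000109), and Vsir, which encodes VISTA, by 0.67 (SE 0.14, adjusted p = 0.00308).

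NK cell genes were lower in T11 for 2 of the 8 tested of 12 listed and higher for 1, against 28.4% lower and 19% higher over all genes tested, and the count was 1 lower without KPB25L replicate 2. The higher gene was Gzma, which the cytotoxicity list also holds, and the lower ones were Klra4 and Klrc1. Klra4 passed the filter on low values through KPB25L alone. Klra4 was listed at 0 in all 4 T11 tumours and stood at log2 levels of 9.27, 10.63, 9.79, 9.71 and 9.33 in KPB25L (adjusted p = 2.46e-08). Klrc1, an inhibitory NK receptor, stood at log2 levels of 4.43, 3.35, 4.52 and 4.54 in T11 and 6.69, 8.32, 9.26, 8.95 and 8.37 in KPB25L, a log2 difference of -4.11 (SE 0.5, adjusted p = 9.8e-05). Both genes had signal in cultured KPB25L, at 9.87 and 6.53, and both were listed at 0 in cultured T11. Klra4 belongs to a family whose members differ between strains, so reads may be shared among copies.

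B cell markers were called for 0 of 5 tested genes of 14 listed, and the count was 2 lower without T11 replicate 1. Plasma cell genes were lower for 3 of 8 tested of 16 listed and higher for 0, against 28.4% lower over all genes tested. Jchain, which joins secreted antibodies, stood at log2 levels of 3.6, 0, 3.06 and 4.77 in T11 and 9.11, 6.54, 5.14, 5.29 and 5.17 in KPB25L, a log2 difference of -3.39 (SE 1.05, adjusted p = 0.0223), and without T11 replicate 2 of -2.44 (adjusted p = 0.0536). Igha, the IgA heavy chain, differed by -2.12 (SE 0.54, adjusted p = 0.00873), and Igkc stood at log2 levels of 6.52, 4.77, 4.78 and 7.2 in T11 and 12.6, 10.36, 6.37, 7.24 and 7.72 in KPB25L, a log2 difference of -3.04 (SE 1.17, adjusted p = 0.0537). KPB25L replicate 1 was the highest tumour for Jchain and Igkc. Sdc1, a plasma cell marker that epithelia also express, differed by -1.4 (SE 0.17, adjusted p = 0.000106) and stood at 10.29 in cultured T11 and 13.19 in cultured KPB25L.

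**Figure D4:**
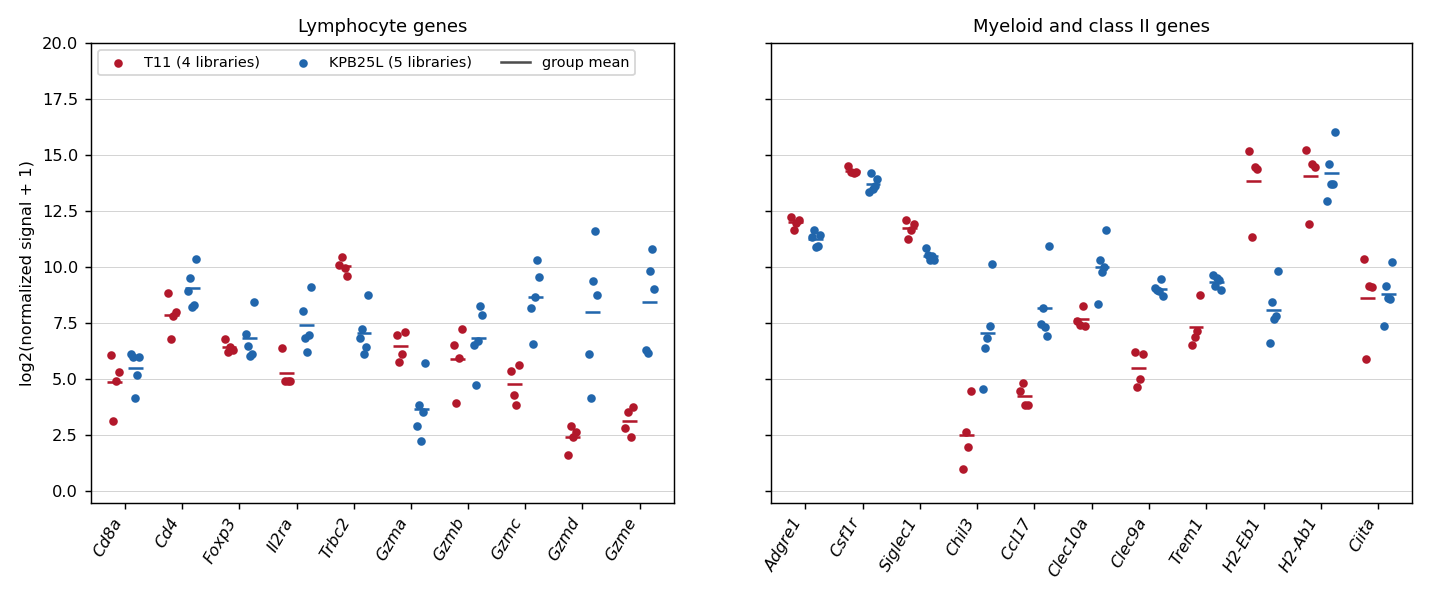
Log2 levels (vertical axis) of lymphocyte genes (left) and of myeloid and class II genes (right) in each of the 4 T11 (red) and 5 KPB25L (blue) tumours, with a line at each group mean. Siglec1 is higher and Clec9a lower in all T11 tumours, whereas Cd8a, Foxp3 and Ciita overlap.

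Interferon genes were called at shares close to or under those of all genes. Of 25 tested interferon gamma response genes of 26 listed, 4 were higher and 0 lower in T11, and the counts were 1 higher without T11 replicate 1, 2 higher with each of T11 replicate 3, T11 replicate 4, KPB25L replicate 3 and KPB25L replicate 4 left out in turn, 7 higher without KPB25L replicate 5 and 2 lower without T11 replicate 1. Irf1, an interferon-induced factor, differed by 0.56 (SE 0.17, adjusted p = 0.0226), and without T11 replicate 1 by 0.44 (adjusted p = 0.0731). Of 27 type I interferon genes, 4 were higher and 2 lower, with counts of 2 higher with each of T11 replicate 1, T11 replicate 4, KPB25L replicate 2, KPB25L replicate 3 and KPB25L replicate 4 left out in turn, 7 higher without T11 replicate 2 and 1 lower with each of T11 replicate 2, T11 replicate 3, KPB25L replicate 4 and KPB25L replicate 5 left out in turn. Tmem173, which encodes STING, stood at log2 levels of 12.78, 12.74, 12.68 and 12.66 in T11 and 11.32, 11.5, 11.29, 11.57 and 11.84 in KPB25L, a log2 difference of 1.21 (SE 0.12, adjusted p = 2.16e-05). Ifih1, a sensor of viral RNA, differed by 1.15 (SE 0.31, adjusted p = 0.0116). Apobec3, a cytidine deaminase that restricts retroviruses, stood at log2 levels of 11.31, 11.19, 10.98 and 11.2 in T11 and 10.71, 10.69, 10.77, 11.08 and 10.82 in KPB25L, a log2 difference of 0.35 (SE 0.11, adjusted p = 0.0256). Its call was lost without T11 replicate 1 (0.31, adjusted p = 0.0844), T11 replicate 2 (0.35, adjusted p = 0.0602) or T11 replicate 4 (0.34, adjusted p = 0.0663).

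Genes of MHC class I were higher for 4 of 16 and lower for 3, with counts of 2 higher with each of T11 replicate 1, T11 replicate 3, T11 replicate 4, KPB25L replicate 1 and KPB25L replicate 3 left out in turn. B2m, the shared light chain, stood at log2 levels of 16.45, 15.21, 16.43 and 16.08 in T11 and 14.83, 15.04, 14.28, 14.74 and 15.39 in KPB25L, a log2 difference of 1.18 (SE 0.28, adjusted p = 0.00619), and T11 replicate 2 was inside the KPB25L range. H2-T23, a nonclassical class I gene, differed by 1.66 (SE 0.37, adjusted p = 0.00439), and Tapbp, which loads peptide, by -0.63 (SE 0.15, adjusted p = 0.00602).

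Of 12 MHC class II genes, 2 were higher and 0 lower in T11, against 19% and 28.4% of all genes tested. These 2 were H2-Eb1 and H2-Ea-ps. H2-Eb1 (chr17:34305867-34316674), an E chain gene, stood at log2 levels of 15.15, 11.35, 14.45 and 14.39 in T11 and 6.59, 8.45, 7.69, 7.83 and 9.82 in KPB25L, a log2 difference of 5.76 (SE 0.79, adjusted p = 0.000214). H2-Ea-ps, its partner locus, differed by 6.08 (SE 0.77, adjusted p = 0.000124). H2-Ab1, an A chain gene, stood at log2 levels of 15.21, 11.91, 14.6 and 14.44 in T11 and 12.94, 14.61, 13.69, 13.7 and 16.02 in KPB25L, a log2 difference of -0.16 (SE 0.72, adjusted p = 0.877). Ciita, the master regulator of class II genes, stood at log2 levels of 10.35, 5.88, 9.17 and 9.1 in T11 and 7.35, 9.15, 8.61, 8.57 and 10.21 in KPB25L, a log2 difference of -0.15 (SE 0.82, adjusted p = 0.894). T11 replicate 2 was the lowest T11 tumour for all 4 genes, and H2-Ab1 and Ciita overlapped between the lines.

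Glands of the 2 strains give, beside the tumour values, differences between strains without a tumour. A gene not called between glands is not shown to be equal in them. Among 5 BALB/c and 4 FVB mammary glands, 216 of 16438 genes tested were called, or 1.31%, with 121 higher in BALB/c (0.736%) and 95 lower (0.578%). Leaving out each gland library in turn gave 36 to 420 higher and 40 to 197 lower, with the highest counts without BALB/c gland replicate 1. H2-Eb1 and H2-Ea-ps were called between glands too, with log2 differences (BALB/c minus FVB) of 5.58 and 5.49, and H2-T23 with 2.16. Of genes past 1 log2 unit in the tumours, 46 of 1139 tested in glands were called the same way when higher in T11 and 37 of 1843 when lower.

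Genes called both in tumours and in glands included several with large values. Tpm3-rs7, a tropomyosin copy, stood at log2 levels of 14.87, 14.95, 14.84 and 14.96 in T11 and 9.2, 10.07, 9.37, 9.51 and 9.1 in KPB25L, a log2 difference of 5.46 (SE 0.18, adjusted p = 2.14e-08), and its gland difference was 4.08. It shares sequence with Tpm3, so the counting between the copies is uncertain. Gvin1, an interferon-inducible GTPase of a multicopy family, was listed at 0 in all 4 T11 tumours and stood at log2 levels of 10.98, 9.9, 9.61, 10.38 and 11.62 in KPB25L (adjusted p = 4.88e-08). Gvin1 passed the filter on low values in the tumours through KPB25L alone. Gdpd3, a lipid phosphodiesterase, stood at log2 levels of 5.47, 5.24, 5.24 and 5.16 in T11 and 9.79, 10.2, 10.01, 10.23 and 11.42 in KPB25L, a log2 difference of -5.05 (SE 0.3, adjusted p = 8.25e-07), and its gland difference was -6.46.

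Other genes called in both comparisons had smaller gland differences than Tpm3-rs7 and Gdpd3, in both directions. Stac2, Arntl2, a clock factor, and Fgf1 differed by 5.27 (SE 0.32, adjusted p = 9.61e-07), 5.05 (SE 0.37, adjusted p = 3.08e-06) and 4.81 (SE 0.32, adjusted p = 1.64e-06) in the tumours and by 1.09, 2.82 and 2.09 in the glands. Ccl27a, a skin chemokine, C5ar2, a receptor of complement C5a, and Npl, a sialic acid lyase, differed by -5.76 (SE 0.28, adjusted p = 2.03e-07), -3.12 (SE 0.23, adjusted p = 3.72e-06) and -3.06 (SE 0.29, adjusted p = 1.97e-05) in the tumours and by -2.96, -2.11 and -1.65 in the glands. Epcam and Cdh1 had gland differences of 0.1 and 0.39, neither of which was called. The part of host strain in the tumour differences was not tested.

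Complement genes were lower for 4 of 19 and higher for 1, against 28.4% lower and 19% higher over all genes tested, with counts of 3 higher without KPB25L replicate 5, 4 higher without KPB25L replicate 2 and 2 lower with each of T11 replicate 2 and T11 replicate 3 left out in turn. Clu, the complement inhibitor clusterin, stood at log2 levels of 10.6, 11.1, 11.11 and 12.3 in T11 and 15.55, 13.59, 13.43, 14.1 and 14.7 in KPB25L, a log2 difference of -3 (SE 0.45, adjusted p = 0.000402). C1s1, a protease of the classical pathway, differed by -2.31 (SE 0.63, adjusted p = 0.0127). T11 replicate 4 was the highest T11 tumour for both genes.

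The same lines were read at other times and in culture, with other tumours. At 7 days, 4 T11 and 3 KPB25L mice shared a flow cell, 49% of 15542 genes tested were called, and 24.2% were higher and 24.8% lower. At end stage, 5 T11 and 6 KPB25L tumours gave 59.8% of 14935 genes, with 31.1% higher and 28.7% lower. Of the 1232 genes past 1 log2 unit higher in T11 at 3 days (8.28% of those tested), 1047 of 1232 were called higher at 7 days and 1107 of 1216 at end stage. Of the 1992 lower (13.4%), 1617 of 1955 and 1813 of 1960 were called lower. Called the other way were 1 and 3 of the higher genes and 0 and 0 of the lower ones.

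Cultures were 1 library per parental line, so they carry no test. More than 1 log2 unit in the same direction were 810 of 1119 higher genes and 1357 of 1684 lower ones, against 17.9% higher and 26.7% lower, 44.6% in all, over the 15634 genes compared. In the opposite direction lay 50 and 63. With predicted genes left out, 967 of 2510 genes called higher and 1432 of 3705 called lower were called the same way at both later times and lay past 1 log2 unit that way in culture.

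By gene, Epcam differed by -8.75 at 7 days and -8.4 at end stage on the log2 scale, and stood at 0.67 in cultured T11 and 12.68 in cultured KPB25L. Sox2 was called higher at both later times as well, but it was chosen on that condition. Hypoxia and glycolysis genes were higher for 10 of 18 at 7 days and 9 at end stage, where 2 were lower. Slc2a1 differed by 1.87 at 7 days and 0.17 at end stage, and the latter was not called. Epithelial junction genes were lower for 21 of 23 at 7 days and 22 of 23 at end stage, and for 24 of 24 in culture.

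Immune genes recurred less evenly. Macrophage genes were higher for 9 of 17 at each later time. T cell receptor genes were lower for 6 of 16 at 7 days and higher for 1, and MHC class II genes lower for 7 of 12 and higher for 2. H2-Ab1 differed by -2.9 at 7 days, which was called. Ctla4 differed by -3.04 at 7 days, which was called, and by -1.64 at end stage, which was not. Pdcd1, Cd274 and Gzmb were called lower at end stage only, by -1.38, -1.09 and -4.02. Whether these differences changed between times was not tested.

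**Figure D5:**
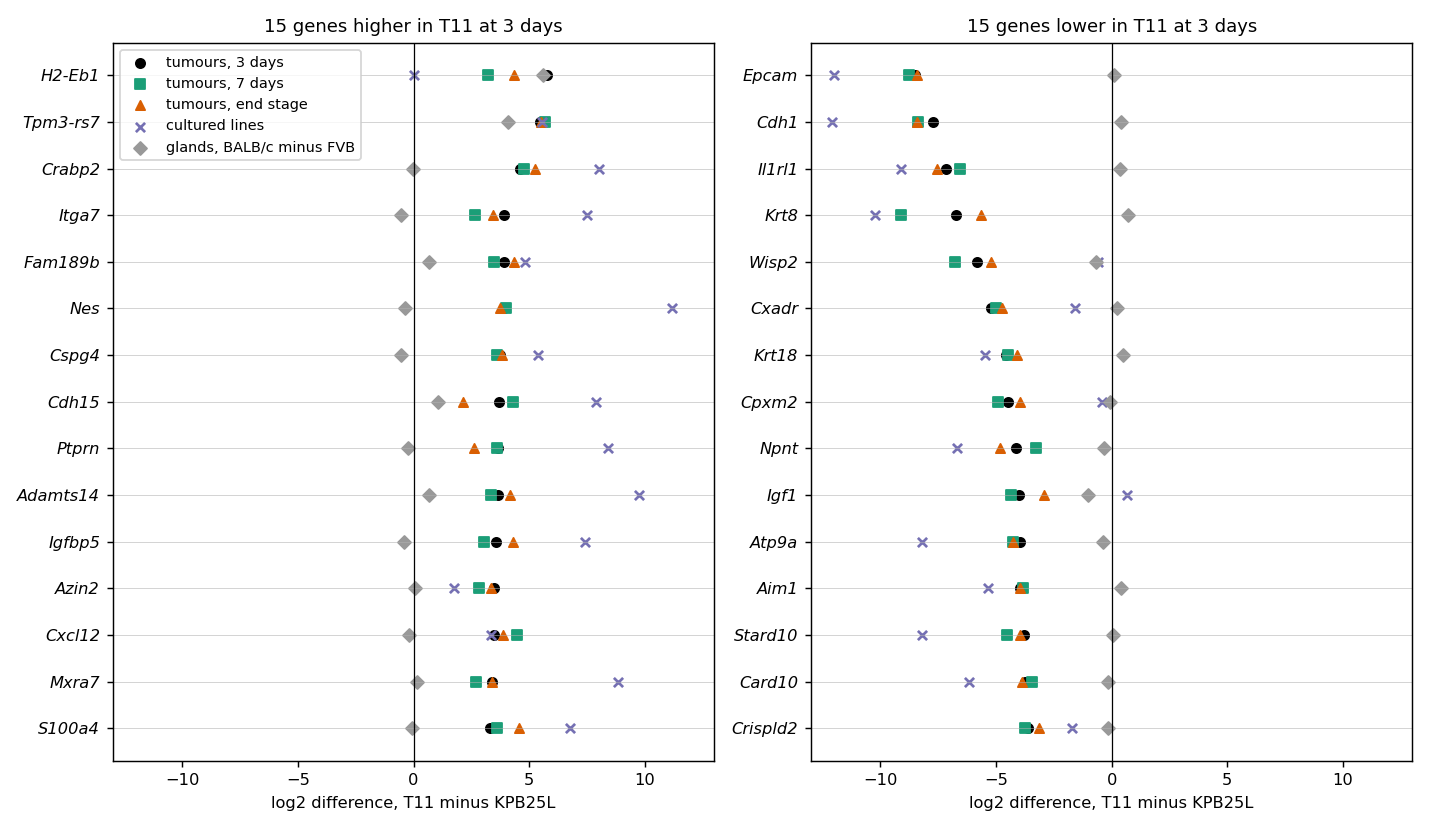
Log2 differences (horizontal axis, T11 minus KPB25L) of the 15 genes named in each direction, at 3 days, at 7 days, at end stage, in cultured lines and, as BALB/c minus FVB, in glands. Points of the 3 tumour times lie on the same side of 0 for all 30 genes, while of the gland differences shown those of H2-Eb1 (5.58) and Tpm3-rs7 (4.08) lie furthest from 0.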

How the data were processed

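RNA was extracted with RNeasy kits and read from both ends for 50 bases on HiSeq instruments after TruSeq mRNA preparation, per the labels' protocols. The submitters' processing notes name STAR, SAMtools, Picard, Salmon and mm10, with no roles or versions. Deposited tables hold 1 signal value per gene and library, which the authors brought to a common upper quartile (file headers). Within 0.01 of a read, 69.2 to 72.8% of values per library were whole reads, so no count test was used.

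Of 45724 gene entries in the tumour table, 39 with date-like names and 28 of repeated symbols were left out. Tests used log2 of the deposited signal plus 1. A gene had to exceed 0 in 4 or more of the 9 libraries, and the upper 66.7% by mean were tested with limma 3.58.1 (R 4.3.3, variance trend, groups of the comparison only), with Benjamini-Hochberg adjustment and calls under 0.05. The script was tested on simulated data. Later times and glands were fitted alone. At 7 days, a KPB25L mouse and its repeat library were averaged. The cultured lines, scaled separately by the authors, were compared within their own table, and are 1 library each. Positions are from GENCODE vM21 (GRCm38).

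The 42 gene lists and the genes in them were chosen with earlier results of these data known. The tumours were taken by their labels alone. Named genes were those with the largest differences among genes whose groups do not overlap (15 each way over a median level, 5 each way of any level, 5 each way also called between glands), a fixed panel of 23 (1 gene is not reported here), and list members. Of 748 list symbols, 745 were in the table and 641 were tested. Alternatives were other pseudocounts (0.25 and 8), filters, scaling, spread, array weights, left-out libraries and single flow cells. Exome libraries were not analysed here.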

Additional observations from a re-analysis of the deposited data

Results flagged for a closer look

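Single tumours stood apart from the rest of their group at 3 days for 30 of 425 groups of values looked at, or 7.1%, where the gap to the nearest tumour was over Dixon's critical share of the group's range. Chance gives about 1 in 20. Values are log2 levels, and no explanation was tested. KPB25L replicate 1 stood below the other KPB25L tumours for Adamts14 (6.81) and Nes (9.87). KPB25L replicate 2 stood above the other KPB25L tumours for Hoxb9 (11.05). KPB25L replicate 2 stood below the other KPB25L tumours for Cdh1 (13.44) and Mmp13 (9.90). KPB25L replicate 3 stood below the other KPB25L tumours for Pdcd1 (4.45). KPB25L replicate 4 stood above the other KPB25L tumours for Pdgfra (14.42). KPB25L replicate 5 stood above the other KPB25L tumours for Azin2 (10.29), Batf3 (8.52), Gdpd3 (11.42), Gpnmb (9.06), Hoxc9 (8.85), Lum (15.36) and Tnfrsf18 (8.70). KPB25L replicate 5 stood below the other KPB25L tumours for Igf2bp1 (9.81) and Plk1 (11.66). T11 replicate 1 stood above the other T11 tumours for Il2ra (6.41). T11 replicate 2 stood below the other T11 tumours for Foxc2 (7.58), Klrc1 (3.35), Lama3 (4.70) and Wisp2 (5.56). T11 replicate 3 stood above the other T11 tumours for Elf3 (4.88) and Esrp1 (4.78). T11 replicate 3 stood below the other T11 tumours for Brca1 (9.62) and Igf2bp3 (9.59). T11 replicate 4 stood above the other T11 tumours for Cdh3 (6.62), Cxadr (9.49), Il1rl1 (8.88), Sdc1 (14.25) and Tmprss11e (0.88).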

How the results depend on the processing

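At 3 days, leaving out each tumour in turn gave 2268 to 2962 genes higher in T11 and 3563 to 4385 lower, against 2821 and 4228. Sharing the spread over 243 libraries in 49 groups gave 1750 higher. Rescaling by the median gene gave 3671 higher and 3695 lower. Over all settings run, counts at 7 days were 2714 to 4440 higher and 3080 to 4586 lower, at end stage 4173 to 5005 and 3492 to 4574, and in culture 2494 to 2797 and 3724 to 4169. Between glands, leaving out each library in turn gave 36 to 420 higher and 40 to 197 lower in BALB/c, with the highest counts, 420 and 197, without BALB/c replicate 1. The cause of these shifts was not tested. No paired analysis was possible because the labels give the lines no shared mouse or replicate numbers. Over the single genes named, 4162 values kept direction and side of the threshold, 105 lost the call, 48 gained it and 28 changed sign.

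The genes that changed sign were uncalled at 3 days, and the cause was not tested. With limma array weights, log2 differences were 0.29 for Cd274, 0.12 for Cd8a, 0.46 for Ciita, 0.08 for Foxp3, 0.50 for H2-Ab1 and 0.43 for Pdcd1. With KPB25L replicates 1 and 2 only, they were 0.07 for Cd274, 0.37 for Ciita, 0.28 for Gzmb and 0.26 for H2-Ab1. With KPB25L replicates 3 and 4 only, they were 0.03 for Cd274, 0.18 for Cd8a, 0.03 for Ciita, 0.34 for Foxp3, 0.34 for H2-Ab1, -0.26 for Hoxb3 and 0.38 for Pdcd1. Without both KPB25L tumours labelled flow, Hoxb3 was -0.04. Without T11 replicate 2, they were 0.42 for Cd274, 0.76 for Ciita, 0.55 for H2-Ab1, 0.34 for Pdcd1 and 0.23 for S100a8. Without KPB25L replicate 5, they were 0.05 for Cd274, 0.20 for Ciita, 0.01 for Foxp3 and 0.30 for H2-Ab1, and without T11 replicate 1, S100a8 was 0.15. Leaving out 1 tumour at a time, lowest values were -0.46 for Cd274, -0.73 for Ciita, -0.6 for Foxp3, -0.55 for H2-Ab1, -0.75 for Pdcd1 and -1.1 for S100a8. A log2 level under about 1.54 is at most 1 read in the shallowest library, so genes near 0 in either line have imprecise differences.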

Other observations

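The eosinophil list was left out of the comparison because 1 of its 8 genes was tested. Log2 levels of that 1 tested gene were 4.1, 5.03, 3.5 and 2.81 in the T11 tumours. In the KPB25L tumours they were 2.93, 3.82, 5.87, 6.08 and 10.31, and KPB25L replicate 5 stood above all others. Gata2, a factor of mast cells and blood progenitors, stood at log2 levels of 10.49, 10.68, 10.44 and 10.35 in T11 and 7.98, 7.81, 7.33, 7.35 and 8.78 in KPB25L, a log2 difference of 2.64 (SE 0.28, adjusted p = 3.72e-05). Cultured T11 stood at 9.81 for Gata2 and cultured KPB25L at 5.06, and of the mast cell list 1 of 8 tested genes was called higher and 0 lower.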
